A study of Mus musculus with 58 samples.

Results

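Large parvalbumin (PV) interneurons of low membrane resistance were compared with small PV interneurons of high membrane resistance, for the RNA that the recorded cells contained. The large group held the cells labelled Pass with a membrane capacitance (cm) of at least 50 and a membrane resistance (rm) of at most 270, which gave 15 cells. The small group held the Pass cells with a cm of at most 31 and an rm of at least 400, which gave 12 cells. Together they are 27 of the 58 cells of the series and of its 54 Pass cells, while 22 Pass cells lay on neither side, 5 had no membrane values and 4 cells were labelled Fail. The labels give no unit for cm, rm or the resting potential, so these values are printed as labelled. The labels do not say what Pass rests on, and no RNA level entered the limits on cm and rm.

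All cells came from the ventral subiculum, through which the hippocampus sends much of its output, of PV-Cre::Ai9 mice, in which Cre recombinase made under the parvalbumin gene switches on a red fluorescent reporter. A cell is therefore marked by past or present activity of the parvalbumin promoter, and not by its current parvalbumin level. Both groups carried this genotype, and neither was treated. Each library holds the cytosol of 1 cell, taken up with a patch pipette. The series used 4 male and 3 female animals, and which cell came from which animal is not labelled. The large cells comprised 3 cells of males at postnatal day 35 (male P35), 7 of males at day 36 (male P36), 3 of females at day 40 (female P40) and 2 of females at day 42 (female P42). The small cells comprised 3, 4, 3 and 2 cells of the same 4 pools.

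PV interneurons are inhibitory cells that release GABA and fire brief action potentials at high rates. Membrane capacitance grows with the area of the cell membrane, and membrane resistance falls as more channels are open at rest, so a large cell also tends to have a low resistance. The open channels at rest are mainly leak potassium channels of the tandem-pore family, inward rectifiers, HCN cation channels and the sodium leak channel Nalcn. Kv3 potassium channels end each action potential quickly, Kv4 channels with their KChIP partners delay firing, and BK channels respond to calcium and voltage together.

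The groups were far apart on both measures that chose them. The large cells had a cm of 52 to 102 (median 63) and an rm of 88 to 266 (median 171), and the small cells a cm of 18 to 31 (median 27.5) and an rm of 443 to 805 (median 514). Just outside the large group lay cells with a cm of 47 and an rm of 253, and with a cm of 51 and an rm of 275. The nearest members inside it had a cm of 52 and an rm of 188, and a cm of 54 and an rm of 266. Just outside the small group lay cells with a cm of 38 and an rm of 430, and with a cm of 24 and an rm of 358. Its nearest members had a cm of 31 and an rm of 453, and a cm of 25 and an rm of 443.

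**Figure D1:**
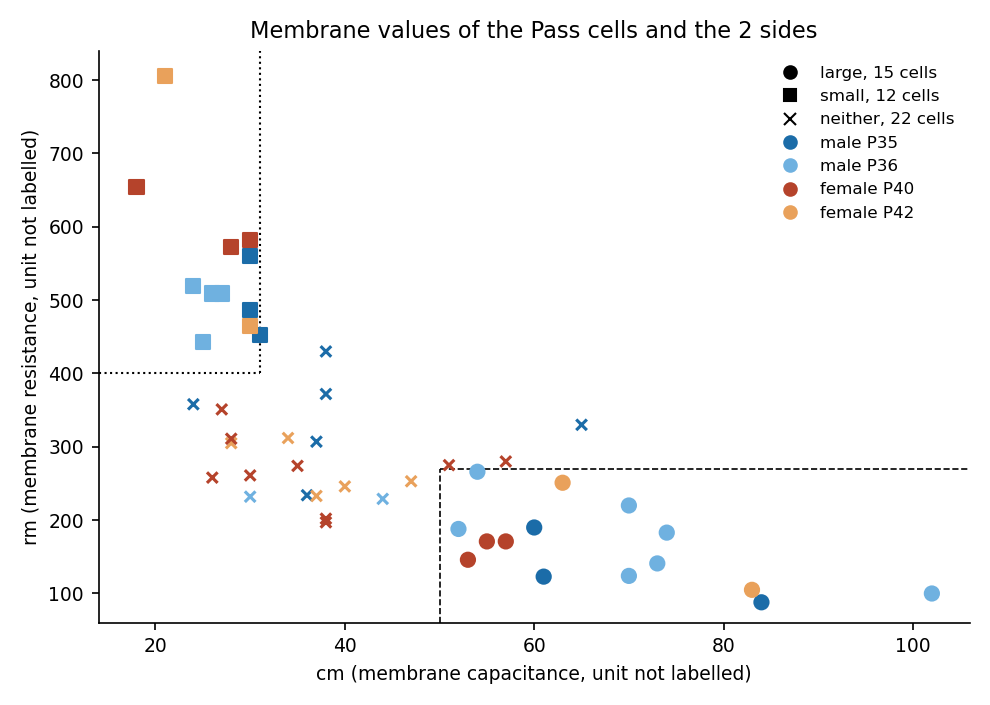
Membrane resistance (vertical axis, as labelled) against membrane capacitance (horizontal axis, as labelled) of the 49 Pass cells with both values, coloured by pool. Circles are the 15 large cells, squares the 12 small cells and crosses the 22 cells on neither side, and the lines mark the limits that define the groups. Each pool contributes cells to both groups.

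The resting potential was not used to choose the cells. It ranged from -68.3 to -55 (median -61) in large cells and from -66 to -48 (median -57) in small cells, so the groups overlapped. Averaged within pools it was -60.7, -63.2, -58.7 and -58.0 in the large cells and -56.3, -53.3, -63.0 and -56.5 in the small cells, with the male pools (P35, then P36) before the female ones (P40, then P42), an order kept for all pool values here. The large cells were more negative in 3 of the 4 pools, and the mean difference of -2.85 (SD 5.93 over pools) gave p = 0.5 in an exact two-sided permutation test. That test swaps the groups within pools in 16 ways, so the smallest p it allows is 0.125 and it cannot call a difference.

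Total counts were 2.41 to 28.9 M (median 9.65 M) per large cell and 4.76 to 18.1 M (median 12.7 M) per small cell. Averaged within pools they were 11.3, 13.9, 7.26 and 8.89 M in large cells and 8.70, 11.03, 15.01 and 16.6 M in small cells. The large cells were thus deeper in both male pools and shallower in both female pools (mean difference -2.52 M, SD 6.02 over pools, exact permutation p = 0.5), and the part of depth in the gene values was not tested beyond thinning the cells to an equal total, which called 0 genes. Genes detected numbered 11591 to 13616 in large cells and 12152 to 13769 in small cells, a mean within-pool difference of -269 genes (exact permutation p = 0.25). The share of counts from mitochondrially encoded genes was 0.695% to 2.50% in large cells and 0.634% to 3.13% in small cells. Averaged within pools it was 1.54%, 0.818%, 1.92% and 1.47% in large cells and 1.56%, 1.20%, 1.94% and 1.496% in small cells, lower in the large cells of 4 of 4 pools but nearly level in 3 of them. The mean difference was -0.112 percentage points (SD 0.182 over pools, exact permutation p = 0.125), and medians over cells in place of means gave an exact permutation p of 0.625.

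Transcripts of inhibitory neurons were present in both groups. Gad1, the GABA-synthesising enzyme, exceeded Slc17a7, which loads glutamate into vesicles of excitatory neurons, in 15 of 15 large and 12 of 12 small cells (exact 95% binomial intervals 78.2% to 100% and 73.5% to 100%). Pvalb had at least 1 count in every one of the 27 cells. Sst, the transcript of somatostatin interneurons, exceeded Pvalb in 2 of 15 large and 4 of 12 small cells. Slc17a7 exceeded 100 CPM (counts scaled to the cell's own total) in 2 of 15 large and 2 of 12 small cells, and Vip, the peptide of another interneuron class, did so in 2 of 15 large and 0 of 12 small cells. The intervals treat cells as independent draws, although cells of 1 animal share it.

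For the comparison across genes, the counts of each group were summed within each pool, giving 8 sums, and 12783 genes were tested in edgeR (quasi-likelihood, pool as a block, p adjusted by Benjamini-Hochberg). Differences are log2 values, large minus small. Only Vip passed an adjusted p of 0.05, which is 1 of 12783 genes or 0.00782%. At an unadjusted p under 0.05, 149 genes (1.17%) were higher and 237 (1.85%) lower in large cells. DESeq2 on the same sums called 108 genes (0.845%), 55 higher and 53 lower, whereas limma on the mean over cells called 0, as did edgeR without the block. All genes named below other than Vip are given as values that did not pass (edgeR adjusted p = 0.9997 for each). DESeq2 called 19 of the genes named in the text beside Vip. Kcnip1, Pvalb, Gaa and C1ql1 were among them, and Kcnma1, Pnmal1, Rhot1 and Nrxn3 were not.

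Vip (chromosome 10, 5639218 to 5647617, plus strand, GRCm38) encodes vasoactive intestinal peptide. Large cells held 0 to 2329 CPM (median 6.57) and small cells 0 to 25.4 CPM (median 0.0459). On library sizes scaled by TMM, edgeR's default, which all pool levels here use, Vip was at 223, 564, 0.142 and 4.24 CPM in the large pools and at 1.35, 6.73, 0 and 0 CPM in the small pools. Vip was higher in the large cells of 4 of 4 pools, with a log2 difference of 7.01 ± 0.52 (SE, edgeR adjusted p = 0.0079). In female P40 that direction rested on 3 counts in the large cells against 0 in the small cells. Large cell 3 of male P36 alone held 86.3% of the Vip counts of its group, and with large cell 10 of male P35 the share was 98.7%. Those were the cells at 2329 and 809 CPM. Without both cells the log2 difference was 2.70, with an edgeR adjusted p of 1. Without either one the gene also missed the threshold (adjusted p = 0.999 without cell 3 and 1 without cell 10 in edgeR), as it did without large cell 11 (0.0804). The 22 cells on neither side held 0 to 42.1 CPM, with a median of 0.

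No gene separated the 27 cells completely: the number of genes with every cell of 1 group above every cell of the other was 0. The 4 large pools all lay above the 4 small pools for 115 genes (0.9% of those tested) and all below for 203 (1.59%). Counting only within pools, 695 genes (5.44%) were higher and 813 (6.36%) lower in large cells in 4 of 4 pools. Random signs in the pools would give 1 in 16 genes for each direction, and both shares are near that. The same direction in 4 of 4 pools therefore does not by itself mark a gene.

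Among the genes with the smallest p and the same direction in all pools, Kcnip1 was the most evenly carried of those higher in large cells, with 17.8% of the counts of that group in large cell 3, the cell that held most. Kcnip1 (chromosome 11, 33629339 to 33993152, minus strand) encodes KChIP1, a calcium-binding partner of Kv4 potassium channels. Its level was 59.7 to 403 CPM (median 202) in large cells and 12.7 to 308 CPM (median 58.4) in small cells. All 15 large cells lay above the median of the small cells, and 11 of the 12 small cells lay below the median of the large cells, but the ranges overlapped. The pools stood at 239, 191, 153 and 205 CPM for large cells and at 105, 78.1, 80.2 and 121 CPM for small cells, which do not overlap. The log2 difference was 1.04 ± 0.22 (unadjusted p = 0.0012 in edgeR), and the cells on neither side had a median of 160.5 CPM.

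Pvalb (chromosome 15, 78191114 to 78206400, minus strand) encodes the calcium buffer parvalbumin, whose promoter marked these cells. Large cells held 1.24 to 364 CPM (median 121) and small cells 10.1 to 200.3 CPM (median 36.3). The pools were at 145, 105, 319 and 130.0 CPM in large cells and at 149, 23.8, 45.0 and 21.8 CPM in small cells. Pvalb was thus higher in large cells in 3 of 4 pools and level with the small cells in male P35. The log2 difference was 1.93 ± 0.49 (unadjusted p = 0.00396), and DESeq2 called it. In the cells on neither side the median was 107 CPM, near that of the large cells.

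Egr4 and Nr1d1 also belonged to the genes of smallest p with higher values in large cells. Egr4, a transcription factor of the immediate early class, was at 0.178 to 457 CPM (median 150.1) in large cells and 0.295 to 155 CPM (median 30.1) in small cells. Its pools were at 126, 239.8, 75.0 and 138 CPM in large cells and at 65.8, 83.2, 22.05 and 12.2 CPM in small cells (log2 difference 1.90 ± 0.44). The lowest of all 27 cells was large cell 14 of female P42, so the groups overlapped. Nr1d1, the clock repressor Rev-erb alpha, was at 29.8 to 371 CPM (median 223) in large cells and 15.2 to 357 CPM (median 69.4) in small cells. All but 1 of the 15 large cells exceeded the median of the small cells (log2 difference 1.17 ± 0.30). The labels give no hour of recording.

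Of the other genes in that set, Car4 and H2-M5 were low in most cells. Car4, a membrane-anchored carbonic anhydrase, had 2 counts in all small cells together and 5047 in the large cells, 74.6% of them in large cell 3. H2-M5, a class I histocompatibility gene, had 6 counts in the small cells and 508 in the large cells. It had any count in 5 of 12 small and 8 of 15 large cells. Wwc2, a scaffold of Hippo signalling, was spread more widely, at 0.0689 to 78.1 CPM (median 21.3) in large cells and 0.0637 to 15.8 CPM (median 0.526) in small cells, and 10 of the 15 large cells lay above every small cell. Its pools of 21.5, 23.8, 54.5 and 33.9 CPM in large cells and 8.62, 0.726, 3.20 and 0.551 CPM in small cells did not overlap (log2 difference 4.20 ± 1.09). Rhot1, the mitochondrial transport GTPase Miro1, exceeded 10 CPM in all 27 cells and had a log2 difference of 0.83 ± 0.22, Cul9, a cullin, of 2.16 ± 0.61, and Itih5, a hyaluronan-binding protein, of 5.27 ± 1.46. Large cell 1 alone held 43.4% of the Itih5 counts of its group.

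**Figure D2:**
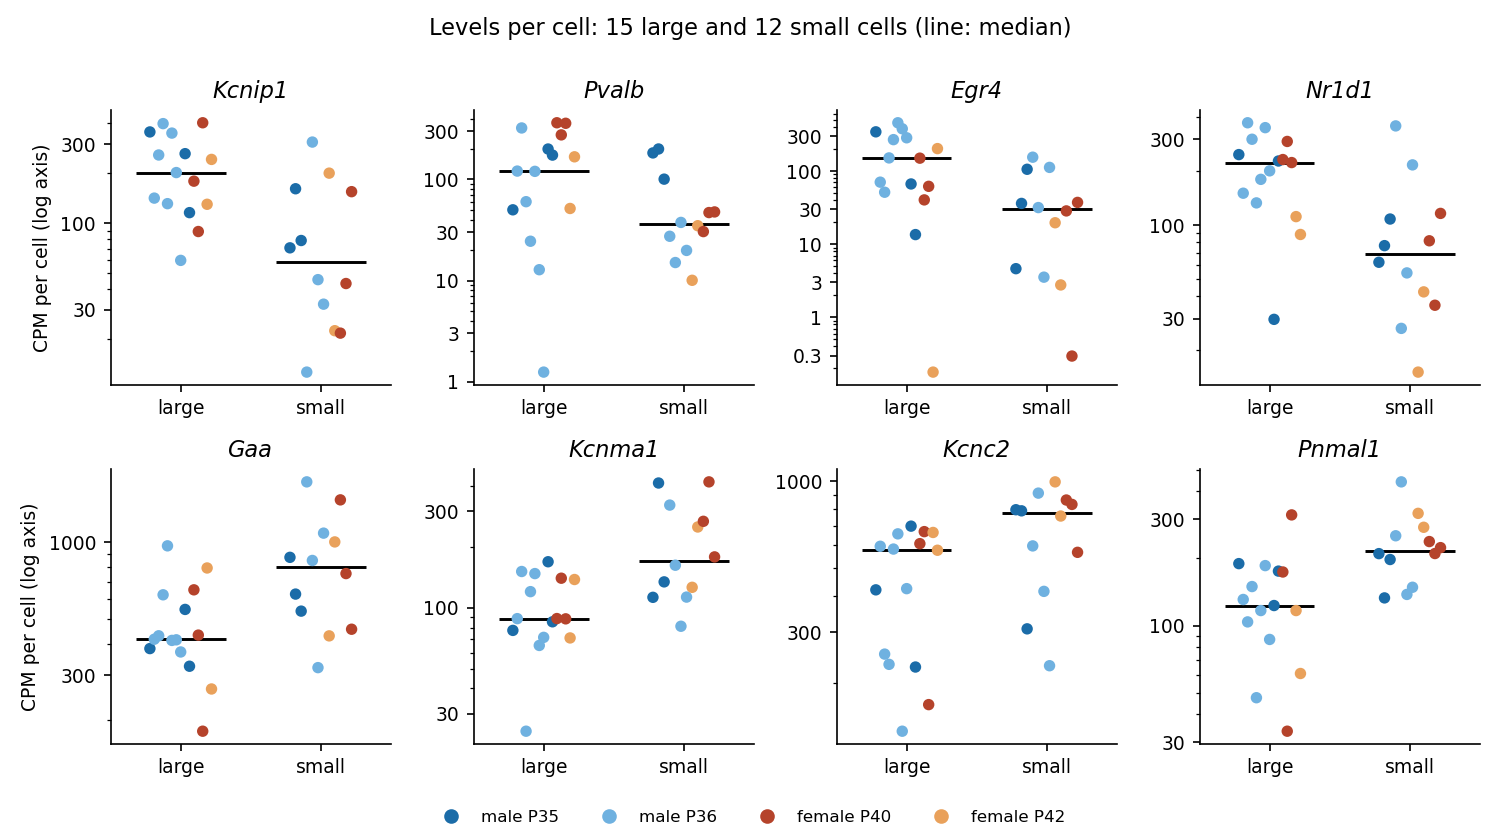
CPM of 8 genes in each of the 15 large (left) and 12 small (right) cells on a log axis, coloured by pool, with the median of each group as a line. The upper genes had the higher median in large cells (Kcnip1 202 against 58.4 CPM) and the lower genes the lower median (Gaa 416 against 801 CPM), with overlapping cells for every gene.

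On the lower side, Gaa, Kcnma1 and Pnmal1 exceeded 10 CPM in all 27 cells, and Rasgrp1 in 14 of 15 large and 12 of 12 small cells. Gaa (chromosome 11, 119267887 to 119285454, plus strand) encodes the lysosomal enzyme that breaks down glycogen. It was at 181 to 969 CPM (median 416) in large cells and 322 to 1727 CPM (median 801) in small cells. Its pools were at 421, 498, 478 and 429 CPM in large cells and at 632, 1013, 891 and 703 CPM in small cells. The pools do not overlap, and 1 of the 15 large cells exceeded the median of the small cells (log2 difference -0.81 ± 0.17, unadjusted p = 0.0012 in edgeR). The cells on neither side had a median of 419 CPM, close to that of the large cells.

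Kcnma1 (chromosome 14, 23289431 to 24014491, minus strand) encodes the pore of the BK potassium channel. Large cells held 24.6 to 169 CPM (median 88.6) and small cells 81.2 to 420.4 CPM (median 171). The pools were at 115, 103, 124 and 116 CPM in large cells and at 222, 162, 309.6 and 187 CPM in small cells, again without overlap. None of the 15 large cells reached the median of the small cells, 6 of the 12 small cells exceeded every large cell, and the log2 difference was -0.90 ± 0.21 (unadjusted p = 0.00283). The cells on neither side had a median of 118 CPM, between the groups.

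Pnmal1, a neuronal gene of the paraneoplastic antigen family, was at 33.6 to 313 CPM (median 123) in large cells and 133 to 440.4 CPM (median 217) in small cells, and 9 of the 15 large cells lay below every small cell. Its pools did not overlap (log2 difference -1.11 ± 0.29). Rasgrp1, a Ras activator responsive to calcium and diacylglycerol, was at 5.17 to 262 CPM (median 83.8) in large cells and 32.4 to 544 CPM (median 131) in small cells (log2 difference -1.22 ± 0.28). Its pools overlapped because small cells of female P42 were at 114 CPM and large cells of male P35 at 159 CPM.

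The remaining genes of that side were low in most large cells. Mob3c (chromosome 4, 115828092 to 115836185, plus strand), of the MOB kinase-activator family, had 9 counts in the large cells and 2115 in the small cells. Per cell it was at 0 to 0.415 CPM (median 0) in large cells and 0 to 52.2 CPM (median 2.44) in small cells. Of the 12 small cells, 8 lay above every large cell and 3 exceeded 10 CPM (log2 difference -7.39 ± 1.31). Small cell 8 alone held 44.6% of the Mob3c counts of its group, and the 2 cells that held most had 78.0%. The cells on neither side reached 58.0 CPM with a median of 2.77, as in small cells. Ppp1r26, a regulator of protein phosphatase 1, exceeded 10 CPM in 1 of 15 large and 7 of 12 small cells (log2 difference -4.80 ± 1.01). Me1, the cytosolic malic enzyme, exceeded that level in 2 of 15 and 5 of 12 cells (-3.43 ± 0.80), Bcar3, an adaptor of integrin signalling, in 0 and 4 (-5.97 ± 1.51), and Grm3, a metabotropic glutamate receptor, in 0 and 3 (-5.59 ± 1.43). Nr4a2, an immediate early nuclear receptor, exceeded it in 3 of 15 large and 8 of 12 small cells. Its log2 difference was -3.55 ± 0.91, opposite in sign to that of Egr4. Small cell 7 held 58.1% of the Nr4a2 counts of the small cells, and large cell 8 held 59.0% of those of the large cells. Small cell 7 also held 55.7% of the Slc17a7 counts of the small cells. The level of 10 CPM was chosen after the values were seen.

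**Figure D3:**
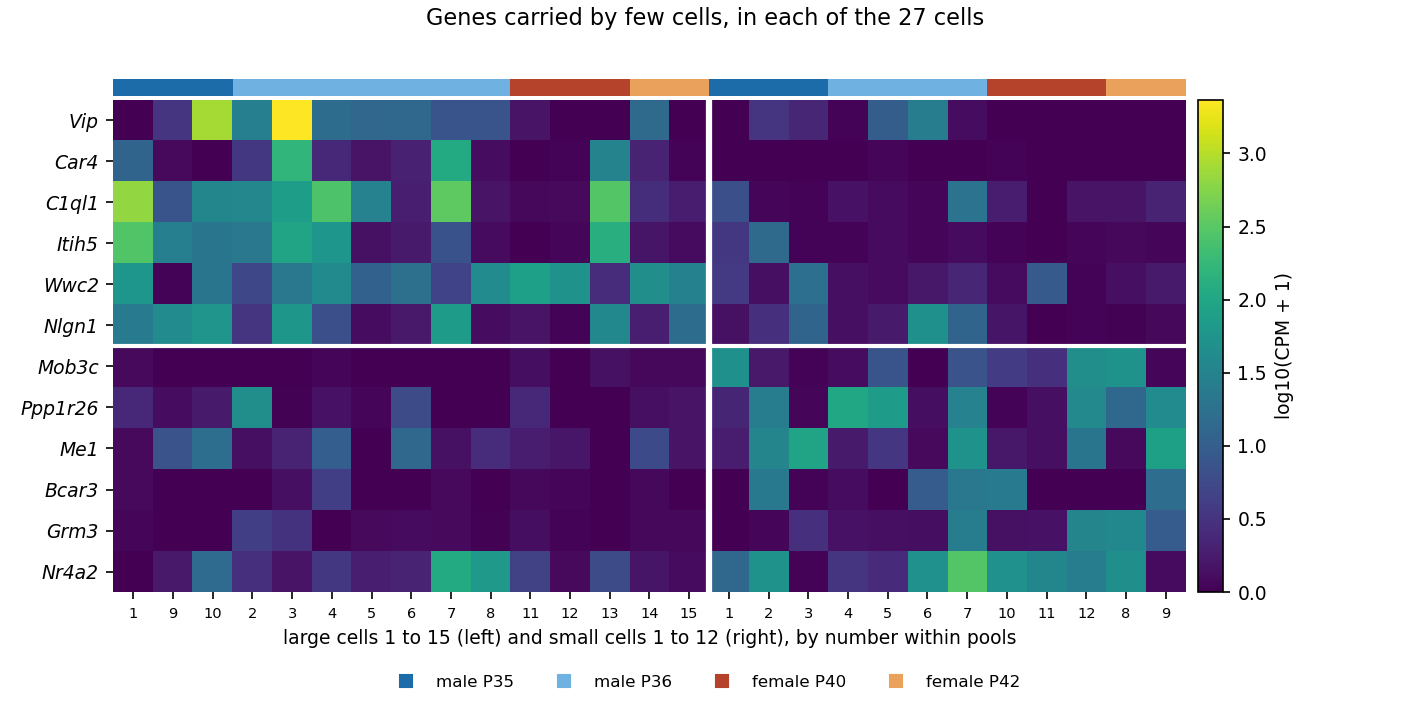
Levels of 12 unevenly carried genes (rows, log10(CPM + 1) as colour) in the 15 large cells (left of the white line) and the 12 small cells (right), ordered by pool as the bar above shows. Each row is carried by some cells of a group and is near 0 in others, such as Vip, for which 2 large cells exceed 100 CPM.

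The genes that set resting conductance did not pass the test in either direction. Of 10 tandem-pore and sodium-activated potassium channel genes listed, 7 were tested, 2 with a positive and 5 with a negative difference. Their median was -0.12 (log2), beside -0.02 over all 12783 genes tested, of which 6167 were positive and 6616 negative. Kcnk1, the leak channel TWIK-1, was at 184, 267, 273 and 284 CPM in the large pools and at 140.2, 208, 239.6 and 283 CPM in the small pools. It was higher in large cells in 4 of 4 pools, though level in female P42 (log2 difference 0.24 ± 0.19). Kcnt1, a sodium-activated potassium channel, was also higher in 4 of 4 pools (0.59 ± 0.32). Cells of the groups overlapped for both.

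Inward rectifiers and HCN channels had negative medians. Of 8 tested inward rectifier genes, 6 were negative and 2 positive, with a median of -0.99, and 0 of them reached an unadjusted p under 0.05. The median moved by more than its spread over pools in 12 of 42 alternative settings, and ranged from -1.25 to 0.18 over them. Kcnj4, the strong inward rectifier Kir2.3, was at 0.0572, 1.18, 0.0944 and 2.46 CPM in the large pools and at 3.05, 2.68, 3.83 and 4.56 CPM in the small pools. These levels are low, and the difference of -3.15 ± 1.82 has a wide error. Among 8 tested HCN and sodium leak genes, 7 were negative (median -0.35). Nalcn itself was at -0.44 ± 0.39.

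Genes of fast spiking showed unequal values among themselves. Kcnc2, the Kv3.2 subunit (chromosome 10, 112271121 to 112467024, plus strand), was at 136 to 699 CPM (median 577) in large cells and 229 to 996 CPM (median 774) in small cells. None of the large cells reached the median of the small cells, and 7 of the 12 small cells exceeded every large cell. Its pools were at 468, 397, 614 and 599.9 CPM in large cells and at 555, 468, 787 and 903 CPM in small cells, lower in large cells in 4 of 4 pools (log2 difference -0.36 ± 0.16, unadjusted p = 0.0595 in edgeR). Kcnc1, the Kv3.1 subunit, was at 124 to 698 CPM (median 346) in large cells and 137 to 464 CPM (median 300.5) in small cells, with a difference of 0.18 ± 0.27. A test of Kcnc2 against Kcnc1 was not run. Kcna3, a Kv1 channel, and Kcnh7, an Erg channel, were lower in large cells in 4 of 4 pools (-1.04 ± 0.49 and -1.10 ± 0.45). Scn1a, the main sodium channel of PV cells, was at 0.34 ± 0.19, and 7 of 10 tested sodium channel genes were positive (median 0.28).

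**Figure D4:**
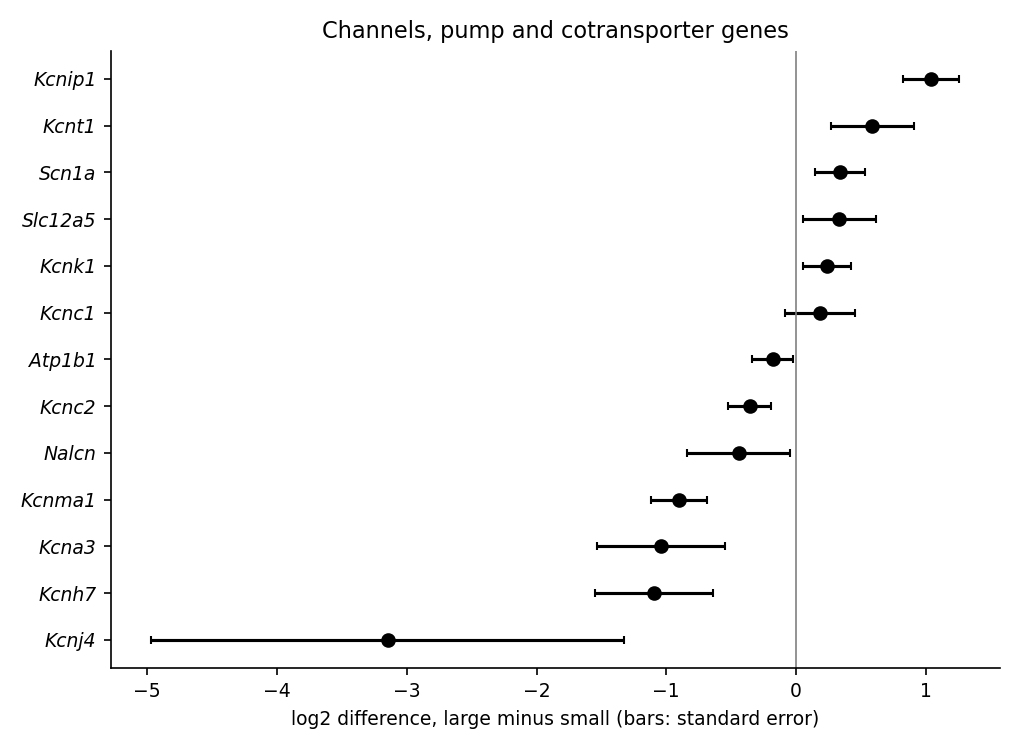
Log2 difference, large minus small, of 13 genes of channels, the sodium pump and the chloride cotransporter, with standard errors from edgeR over the 8 pool sums. Kcnip1 lies farthest to the right at 1.04, and Kcnma1 (-0.90) is the lower gene with the smallest error relative to its size. None of these genes passed the adjusted threshold.

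Genes that serve a larger membrane area or cell body showed no shared direction. Atp1b1, a beta subunit of the sodium pump, was at 1305 to 3044 CPM (median 2294) in large cells and 1711 to 3595 CPM (median 2850) in small cells (log2 difference -0.18 ± 0.16). The neurofilament genes Nefl and Nefm, which set axon calibre, were at 0.16 ± 0.25 and 0.27 ± 0.28. Of 15 tested neurofilament, tubulin and stathmin genes, 7 were positive and 8 negative (median -0.10). Stmn1, a microtubule-destabilising protein, was at 265, 484, 782 and 406 CPM in the large pools and at 743, 705, 699 and 720.5 CPM in the small pools. It was lower in large cells in 3 of 4 pools (-0.67 ± 0.26). Tubb5, a tubulin, was lower in 4 of 4 (-0.46 ± 0.20). These are shares of the RNA of each cell, so a larger cell with more of every transcript would show no difference in them.

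Energy and protein synthesis genes lay near the median of all genes. Mitochondrially encoded genes had a median of -0.12 with 11 of 13 negative, nuclear oxidative phosphorylation genes one of -0.04 with 19 of 27 negative, and cytoplasmic ribosomal protein genes one of -0.08 with 25 of 35 negative. mt-Nd1, a complex I subunit, was at 1361 to 5695 CPM in large cells and 1579 to 7639 CPM in small cells (-0.25 ± 0.18). Over all 12783 genes tested, 6616 were negative and 6167 positive. Whether members of a list vary together from cell to cell was not tested, so the counts of signs are given as descriptions.

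**Figure D5:**
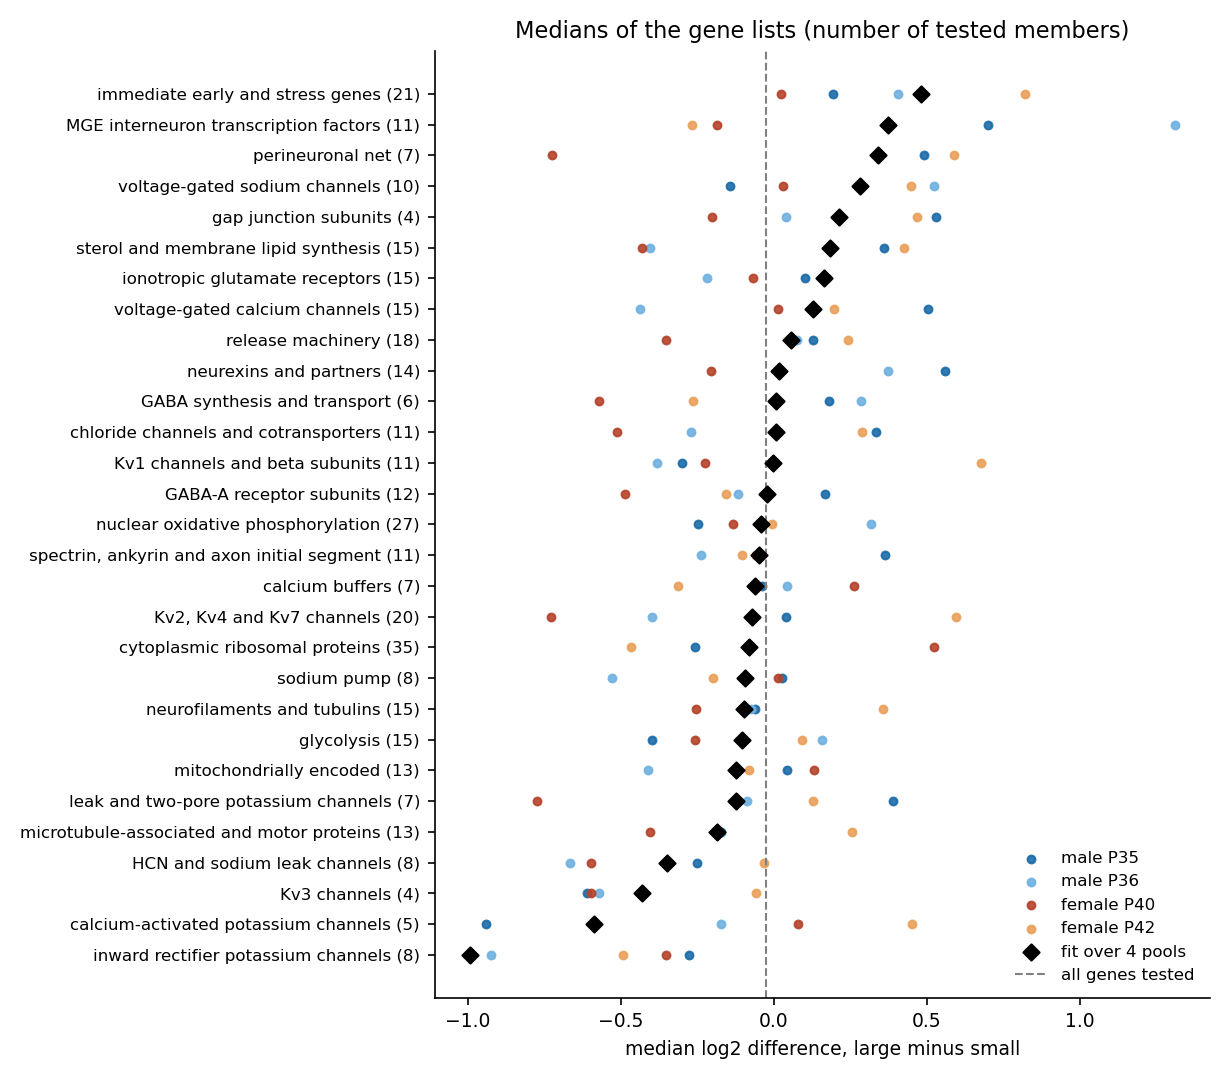
Median log2 difference, large minus small, of the tested members of the gene lists (black diamonds) and the median in each pool (coloured points, on log2(CPM + 1)). The dashed line is the median of all genes tested, -0.02, and the pools scatter on both sides of it for most lists.

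Immediate early and stress genes had the highest median of the pathway lists, 0.48, with 16 of 21 positive, 5 higher in 4 of 4 pools and 2 lower in 4 of 4, against backgrounds of 5.44% and 6.36%. None passed the adjusted test. Fos was at 373 to 3064 CPM (median 1239) in large cells and 409 to 2597 CPM (median 761) in small cells (0.51 ± 0.24). Dusp1, a phosphatase induced by activity and stress, was higher in large cells in 4 of 4 pools (0.53 ± 0.23). The summed level of the list was 1723 to 6290 CPM (median 3897) in large cells and 1413 to 6495 CPM (median 2788) in small cells, which overlap. Nr4a2 belongs to the same list and had the opposite sign. The part of recording and harvest in these values was not tested.

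Transcription factors listed for the medial ganglionic eminence, the embryonic source of PV interneurons, had a median of 0.37 with 8 of 11 positive. The medians within pools, on log2(CPM + 1), were 0.70, 1.31, -0.19 and -0.27. They were thus positive in the male pools and negative in the female pools. Dlx5 was higher in large cells in 4 of 4 pools, at 59.1, 35.9, 27.3 and 57.4 CPM against 49.6, 13.9, 11.9 and 21.1 CPM in small cells (1.07 ± 0.48). Dlx1, of the same family, was at 0.94 ± 0.51 and was higher in 3 of 4 pools.

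Synaptic genes included the gene of the series' title. Nrxn3, a presynaptic adhesion receptor, was at 64.8 to 425 CPM (median 240.0) in large cells and 54.7 to 286 CPM (median 171) in small cells. Its pools were at 289, 171, 248 and 246 CPM in large cells and at 221, 101, 232 and 85.2 CPM in small cells, higher in large cells in 4 of 4 pools (0.69 ± 0.27, unadjusted p = 0.0316 in edgeR). The ranges of cells overlapped, and 13 of the 15 large cells lay above the median of the small cells. Nlgn1, a postsynaptic partner of neurexins, was also higher in 4 of 4 pools (3.49 ± 1.33), with a median of 5.57 CPM in large and 0.492 CPM in small cells. Over 14 tested neurexins and partners the median was 0.02, with 8 positive.

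Of the alpha and beta signal of Nrxn3 together, the alpha class made up 91.4%, 89.6%, 58.2% and 60.1% in the large pools. In the small pools it made up 87.7%, 81.7%, 59.6% and 100%. The lowest sum of alpha and beta signal in a pool of either group was 134, of unstated unit. The mean difference was -7.42 percentage points (SD 22.01 over pools, exact permutation p = 0.875). Only 2 of the 13 isoform features had enough signal in every sum to be compared, and Nrxn2 alpha was the other (-18.9 points, SD 34.8, exact permutation p = 0.375).

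GABA-A receptor subunits had a median of -0.02 over 12 genes. Gabrb1, a beta subunit, was at 1.24 to 90.8 CPM (median 43.1) in large cells and 30.2 to 256 CPM (median 78.8) in small cells, and 7 of the 15 large cells lay below every small cell. It was lower in large cells in 4 of 4 pools (-0.98 ± 0.37). Gad1 and Gad2, which make GABA, were at 0.05 ± 0.25 and -0.39 ± 0.19, and the potassium-chloride cotransporter Slc12a5 at 0.33 ± 0.28. For Gad1, Gad2 and Slc12a5 the ranges of the groups overlapped.

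Markers of other cells varied with the groups as follows. The 8 oligodendrocyte markers summed to 173 to 12822 CPM (median 472) in large cells and 97.4 to 5322 CPM (median 402) in small cells, and Mbp reached 9991 CPM in large cell 4 (log2 difference over pools 1.10 ± 0.54). The 12 excitatory neuron markers summed to 51.3 to 961 CPM (median 165) in large cells and 26.8 to 1447 CPM (median 132) in small cells. Slc17a7 itself was at 0.411 to 409 CPM (median 3.17) in large cells and 0.111 to 428 CPM (median 12.1) in small cells (-1.28 ± 0.47). The 8 microglia markers summed to 49.8 to 2752 CPM in large cells and 69.2 to 2970 CPM in small cells. Without the 4 cells with over 100 CPM of Slc17a7, Kcnip1 was at 0.79, Kcnma1 at -1.03 and Gaa at -0.79. Nrxn3 was at 0.54 and Pvalb at 1.865 in that setting. Nrxn3 fell to 0.42 without the cells of Sst above Pvalb, and Pvalb to 1.51 without the cells of Vip above 100 CPM. Endothelial and mural markers were at 0 to 90.4 CPM in large cells and 0 to 26.1 CPM in small cells, and Kcnj8 had 0 counts in all 27 cells. The part of neighbouring cells' RNA in the other values was not tested.

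The difference between the groups was compared between the sexes by an interaction term in edgeR. It called 0 of 12783 genes (0.0%), and 467 genes (3.65%) had an unadjusted p under 0.05. Sex and age cannot be told apart here, because both male pools were younger than both female pools.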

How the data were processed

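The deposited table holds whole-number counts per gene and cell, not normalized, for 25648 genes in 58 cells; the submitters' processing notes name STAR, edgeR and GRCm38. Per the labels' protocols, libraries were prepared with Nextera XT. The sources used here do not give how reads were counted, on which annotation or with which strand setting, so overlapping and antisense genes are not told apart. All columns matched a labelled cell (0 unmatched), and 0 rows named no gene. The authors' deposited isoform table gives isoform classes and splice forms as a signal whose unit is not stated. The authors' table of normalized values was not used here.

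Cells were grouped by their labelled cm and rm. Counts were summed per group within the 4 pools by sex and age, because cells of 1 animal are not independent. Replicate numbers only name cells. P-values measure the spread between these pools, which may share animals. The deepest cell gave 29.8% to 68.4% of the counts of its sum. No pair of cells was identical (0 pairs), and correlations between cells were 0.769 to 0.903.

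Genes with a count in at least 6 of the 27 cells that passed filterByExpr were tested with edgeR 4.0.16 (R 4.3.3), TMM normalization, a term for pool and one for group, and a Benjamini-Hochberg adjusted p under 0.05. The pool term pairs the 2 groups of a pool, since they share sex and age in the labels. Standard errors are the absolute log2 difference over the square root of F. DESeq2 1.42.0 and limma 3.58.1 were alternatives. Means per pool and splice shares, for features with at least 100 in every sum, were compared with exact permutation tests. Intervals on shares of cells are Clopper-Pearson (95%) and treat cells as independent draws. Coordinates are from GENCODE on GRCm38.

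The groups, gene lists and tests were chosen with earlier results of these data known. Named genes are those passing the test, filled up to 10 per direction by smallest p with the same sign in all pools, with a fixed set and, from every list, the 2 most abundant genes and the 2 of smallest p. Not all are printed. C1ql1, Rbp4, the cells named for holding much of a gene, the 10 CPM level and the 3 alternatives that leave out cells by Vip, Sst or Slc17a7 were chosen after the data were seen. Some results are not reported here.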

Additional observations from a re-analysis of the deposited data

Results flagged for a closer look

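For each gene or measure named here, the 4 pools of a group were searched for a pool far from the other 3, by Dixon's criterion at the 95% level. Of 116 such sets, 6 held one, and chance gives about 5 in 100.

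In the small cells, Itih5 of male P35 stood at 4.91 CPM, against 0.176, 0.0701 and 0.153 CPM in the other small pools. The Nrxn2 alpha share of the small cells of male P35 was 85.8%, against 13.7%, 0.337% and 0.575%. In the large cells, Kcnc1 of female P40 was at 250.5 CPM, against 389, 392 and 366 CPM in the other large pools, and Nefl of the same pool at 219 CPM, against 473, 482 and 436 CPM. Kcnk1 in the large cells of male P35 was at 184 CPM, against 267, 273 and 284 CPM. Gad2 in the large cells of male P36 was at 224 CPM, against 315, 332 and 323 CPM. The causes were not tested.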

How the results depend on the processing

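The number of genes called was 1 with RLE normalization, with no filter on low counts, with detection in at least 14 cells, and without the cells above 100 CPM of Slc17a7. It was 108 with DESeq2. It was 0 without the replicate block, with limma, with cells thinned to an equal total, with capacitance alone, and without the cells of Vip above 100 CPM or of Sst above Pvalb. Leaving out a pool or a cell in turn gave 0 to 1. The call of Vip was lost without male P35 (adjusted p = 0.165) and without male P36 (0.999). The interaction called 0 genes with RLE too. Directions of Gad1 turned, to -0.00360 without the block, -0.20 with limma, -0.18 after thinning, -0.0295 with capacitance alone and -0.0323 without the Slc17a7 cells, and ranged from -0.27 to 0.19 over the pools and cells left out. Cck fell to -0.17 without the Vip cells, and Sst stood at 0.30 without the cells of Sst above Pvalb. That setting leaves out cells by their own Sst level, so it cannot show how Sst depends on the processing. Over the pools and cells left out, Cck ranged from -0.68 to 1.06, Sst from -1.88 to 0.96, Kcnc1 from -0.0735 to 0.51, Nalcn from -0.86 to 0.0551, Nefl from -0.0311 to 0.42, Nefm from -0.0381 to 0.468 and the Nrxn3 alpha share from -12.5 to 3.41 points. The causes were not tested. For all other genes named in the text the sign held in every setting that tested them. Of the 42 settings, Vip, Grm3 and Kcnj4 were tested in 41, Mob3c and Bcar3 in 40, and Car4 and H2-M5 in 36. Vip was not tested without the cells of Sst above Pvalb. A p that missed the threshold does not show that the groups are alike.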

Other observations

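C1ql1, a secreted C1q-like synaptic protein, exceeded 10 CPM in 8 of 15 large cells and 1 of 12 small cells. The gene and the level were chosen after the values were seen, and cells of 1 animal are not independent. These counts of cells are therefore descriptions only. The C1ql1 pools were at 197, 72.9, 33.0 and 1.12 CPM in large cells and at 1.12, 6.62, 0.420 and 0.796 CPM in small cells (log2 difference 4.596 ± 1.31, edgeR adjusted p = 0.9997, called by DESeq2). In large cells 1, 4, 7 and 13 it was at 669, 267, 339 and 288 CPM. Cck, the peptide of cholecystokinin interneurons, was at 1141, 661, 837 and 1148 CPM in those 4 cells, and at 4.84 to 596 CPM in the other cells except large cell 3, at 1050 CPM. Those 5 cells came from 3 of the 4 pools. Slc17a7, the excitatory marker, was at 409 and 148 CPM in large cells 7 and 13, the 2 large cells above 100 CPM, and at 16.3, 3.17 and 3.25 CPM in large cells 1, 3 and 4. Vip was at 2329 CPM in large cell 3. Of 5 markers listed for chandelier interneurons, 3 were tested, 3 with a positive and 0 with a negative difference (median 0.98). That median ranged from -0.26 to 2.10 over the alternative settings, and 0 of these markers reached an unadjusted p under 0.05 in edgeR. Large cell 1 held 59.3% of the large cells' counts of 1 of these markers, and large cell 4 held 29.9% of those of another. The part of neighbouring cells' RNA in these values was not tested.

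Rbp4, a retinol carrier, was at 12.6, 12.99, 19.5 and 100.4 CPM in large cells 1, 4, 7 and 13 and at 76.0 CPM in large cell 3. Every small cell held at least 396 CPM (396 to 1078 CPM), and 9 of the 15 large cells lay below that (12.6 to 1349 CPM in all). Kcnc2 in large cells 1, 3, 4, 7 and 13 was at 420.3, 252, 232, 136 and 168 CPM, beside a median of 577 CPM over the large cells and 774 CPM over the small cells. Pvalb was at 50.1, 323, 60.3, 12.8 and 360 CPM in the same 5 cells, so it did not set them apart. The choice of these cells came from their values, so no test was made of them.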
